A study of Arabidopsis thaliana with 8 samples.

Results

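The salt response of Col wild-type leaves is the difference between plants of Arabidopsis thaliana accession Col given 100 mM NaCl (Col 100 mM) and Col plants given none (Col 0 mM). It rests on 4 of the 8 Affymetrix ATH1-type arrays of the study, 2 for each group. Each array holds total RNA of developed, not senescent leaves from at least 15 seedlings, cut 20 days after sowing, and the labels describe the arrays of a group as biological replicates from separate pots. Salt was given from day 14 in nutrient solution and raised in steps of 50 mM every 2 days, so that salted leaves were cut 6 days after it began; unsalted plants got the solution alone, and all grew in 10 h of light. The other 4 arrays hold the transgenic line M6PR with 100 mM NaCl and without it, 2 each. M6PR plants carry a mannose-6-phosphate reductase of celery and make mannitol, and their sample descriptions name the accession Ws rather than Col. They enter here through the shared estimate of spread and where the responses of both lines are compared. The labels say that the Col arrays also belong to another series. All 22746 probe sets other than array controls were compared, with 13355 genes represented by 1 probe set each. The annotation names no gene for 8730 of these probe sets and several for 503. A gene called measured below has a probe set named for it alone, so the gene lists and families can lack members that the array holds.

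Salt around the root lowers the water that leaves can draw and later loads them with sodium and chloride. Known parts of the response in Arabidopsis are abscisic acid and calcium signals, zinc finger, WRKY and AP2/ERF transcription factors, protective dehydrins, changes in cell wall enzymes and growth, and lower expression of photosynthetic genes. Levels below are the deposited log2 intensities, where a difference of 1 is a 2-fold change. A level under log2 4 was taken as background: a fold that starts or ends there is a lower bound against log2 4, and a gene with both groups under that level gets no fold.

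The 2 arrays of a group are what limits the precision. Across probe sets the Pearson r between replicates was 0.984 for Col 100 mM and 0.997 for Col 0 mM, and their root mean square SD was 0.404 and 0.172 log2 units. Col 100 mM replicate 2 correlated more closely with M6PR 100 mM replicate 2 (0.991) than with its own replicate (0.984). M6PR 100 mM replicate 1 correlated as closely with M6PR 0 mM replicate 1 (0.983) as with M6PR 100 mM replicate 2 (0.982). Both Col 0 mM arrays also correlated more closely with M6PR 100 mM replicate 1 (0.981 each) than with any M6PR 0 mM array (0.960 to 0.965) or Col 100 mM array (0.942 to 0.959). Array medians were 5.29 and 5.31 in Col 100 mM, against 5.08 and 5.08 in Col 0 mM. The leaf marker RCA, Rubisco activase, stood at 14.54 and 14.52 in Col 100 mM, against 14.82 and 14.70 in Col 0 mM. The other measured mesophyll marker, LHCB4.3, fell (change −1.73, adjusted p 0.0173), and the companion cell marker SWEET11 had a change of −0.82 (adjusted p 0.153) and the guard cell marker FMA one of −0.42 (adjusted p 0.295). The flower and meristem markers UFO and CLV3 and the root markers EXPA7 and EXPA18 lay at the floor of 2.15 on all 4 Col arrays. The third measured root marker, the beta-glucosidase gene PYK10, did not: it had 10.28 and 7.51 in Col 100 mM, against 2.22 and 2.32 in Col 0 mM (change 6.63, SE 1.51, limma adjusted p 0.0801). Its salted arrays were both far above the unsalted ones but differed from each other, and the part of root material in any result below was not tested. In whole leaves, fewer cells of a type and less RNA per cell cannot be told apart.

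Salt changed 1193 of the 22746 probe sets in Col (5.24%) at a limma adjusted p under 0.05, with 512 higher (2.25%) and 681 lower (2.99%) in Col 100 mM. Rises were the larger changes: their median size was 1.97 log2 units, against 1.0 for falls. Of the rises, 341 were above background in both groups, 114 were above it in Col 100 mM alone and 57 in neither, and of the falls 528, 90 (above it in Col 0 mM alone) and 63. Where both groups were above background, the median fold was 3.77 for rises and 1.93 for falls. On both Col 0 mM arrays 82 of the 512 rises had the same value within 0.01, and 66 of these lay below background there, so they add next to no spread to the estimate. With each array centred on its median, the probe sets' median change shifted to −0.22 log2 units, against 0.00 as deposited, with 1388 calls higher and 2866 lower. A description without a test was kept beside the calls. A probe set counts as separated where the arrays of the 2 groups lie at least 1 log2 unit apart and the brighter group is above background, which held for 1447 probe sets higher (6.36%) and 1002 lower (4.41%) in Col 100 mM. Among the 7089 genes with a Col group above background the shares were 3.10% called higher, 4.88% called lower, 10.3% separated higher and 7.50% separated lower.

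**Figure D1:**
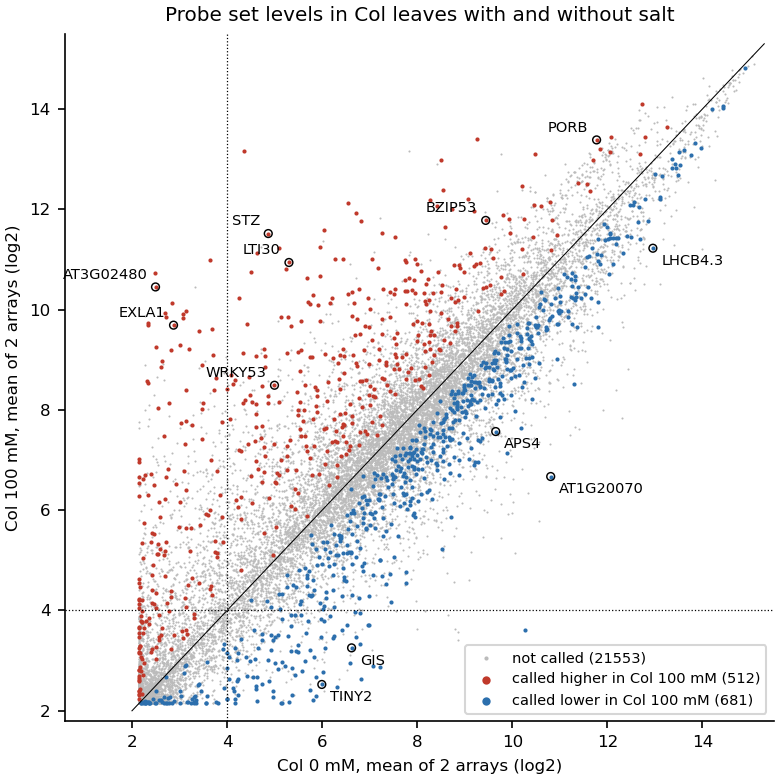
Mean log2 level of each of the 22746 probe sets in Col 100 mM (vertical axis) and Col 0 mM (horizontal axis), 2 arrays each. Red points are the 512 called higher and blue points the 681 called lower in Col 100 mM by limma, dotted lines mark log2 4 and the solid line equal levels. Called rises reach farther from the line than called falls, and many rises start at the left edge, at or near the floor of 2.15.

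Among probe sets of 1 gene that passed with both groups above background, the largest rise was that of STZ (ZAT10), a C2H2 zinc finger transcription factor named for salt tolerance in yeast. It had 11.20 and 11.84 in Col 100 mM, against 4.69 and 5.05 in Col 0 mM, a 100.4-fold rise (SE 0.44 log2 units, adjusted p 0.01), with every salted array far above every unsalted one. The dehydrin gene LTI30 (XERO2) had 10.45 and 11.43 in Col 100 mM, against 5.54 and 5.06 in Col 0 mM, which is 49.8-fold (SE 0.67, adjusted p 0.0295). EXO, whose product promotes cell expansion downstream of brassinosteroids, had 10.33 and 11.29 in Col 100 mM, against 5.10 and 5.37 in Col 0 mM (47.6-fold, SE 0.60, adjusted p 0.0247). ATPMEPCRB, a pectin methylesterase, had 10.01 and 9.70 in Col 100 mM, against 5.37 and 4.89 in Col 0 mM (26.4-fold, adjusted p 0.0168). In each of these genes the groups lay more than 4 log2 units apart. Means in M6PR 0 mM were 9.71 (STZ), 7.83 (LTI30), 12.74 (EXO) and 9.91 (ATPMEPCRB), each above the mean in Col 0 mM. The call of LTI30 was lost without any one of the 4 Col arrays (adjusted p up to 0.111), and those of EXO and ATPMEPCRB without any Col array other than Col 100 mM replicate 2 (adjusted p up to 0.106).

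Among genes that the array leaves at background without salt, the expansin-like gene EXLA1 had 9.34 and 10.04 in Col 100 mM, against 2.7 and 3.04 in Col 0 mM, at least 51.6-fold higher (adjusted p 0.0119). The locus AT3G02480 had 10.14 and 10.76 in Col 100 mM, against 2.5 and 2.5 in Col 0 mM, at least 87.5-fold (adjusted p 0.0118), and AT4G29780 had 11.17 and 10.82 in Col 100 mM, against 3.64 and 3.64 in Col 0 mM, at least 128-fold (adjusted p 0.017). Both unsalted arrays give the same value for each of these loci, and neither locus has a function in the annotation used here. The call of AT4G29780 was lost without any Col array other than Col 100 mM replicate 2 (adjusted p up to 0.0759). Likewise named by locus alone, AT3G15630, AT4G29030, AT2G25735, AT3G10930, AT2G33850 and AT3G59350 were at least 23.1-fold (AT2G33850) to at least 47.6-fold (AT3G59350) higher, all from below background. Among these, the calls of AT4G29030, AT2G33850 and AT3G59350 were lost without any one of the 4 Col arrays. That of AT2G25735 was lost without Col 0 mM replicate 1. AT2G27080, AT1G76600, AT5G19120, AT3G15450, AT1G32920 and AT4G37240 rose by 4.79 to 5.98 log2 units from means above background.

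The largest falls were smaller than the largest rises. AT1G20070 had 6.15 and 7.19 in Col 100 mM, against 10.77 and 10.84 in Col 0 mM, a 17.6-fold fall (SE 0.51 log2 units, adjusted p 0.0311) that left it above background. TINY2, a DREB-type AP2/ERF transcription factor, fell below background, with 2.53 and 2.53 in Col 100 mM, against 6.13 and 5.85 in Col 0 mM (at least 3.98-fold lower, adjusted p 0.0163). GIS, a zinc finger factor that promotes trichomes on the inflorescence, also did, with 3.35 and 3.16 in Col 100 mM, against 6.85 and 6.39 in Col 0 mM (at least 6.15-fold lower, adjusted p 0.0493). PSY1R, the receptor kinase linked to the growth peptide PSY1, had 4.77 and 5.23 in Col 100 mM, against 7.19 and 7.23 in Col 0 mM (4.62-fold lower, adjusted p 0.0169) and stayed above background. The call of GIS was lost without any one of the 4 Col arrays (adjusted p up to 0.197), that of AT1G20070 without any Col array other than Col 100 mM replicate 2 (adjusted p up to 0.128), that of TINY2 without Col 0 mM replicate 1 or Col 100 mM replicate 1 (adjusted p up to 0.0711), and that of PSY1R without either Col 0 mM array (adjusted p up to 0.0735). Named by locus alone, AT5G42760 (at least 9.25-fold), AT2G21560 (at least 4.97-fold), AT1G79160 (at least 7.98-fold) and AT4G33040 (at least 6.55-fold) fell to below background. The same held for AT5G11460, AT1G70985, AT3G51330 and AT3G15310, the last with 2.15 on both salted arrays and 5.32 and 5.0 on the unsalted ones. AT2G40230, AT5G61340, AT1G48100, AT5G12050, AT4G38260, AT3G56260 and AT5G54660 fell by 2.16 to 3.28 log2 units between means above background.

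**Figure D2:**
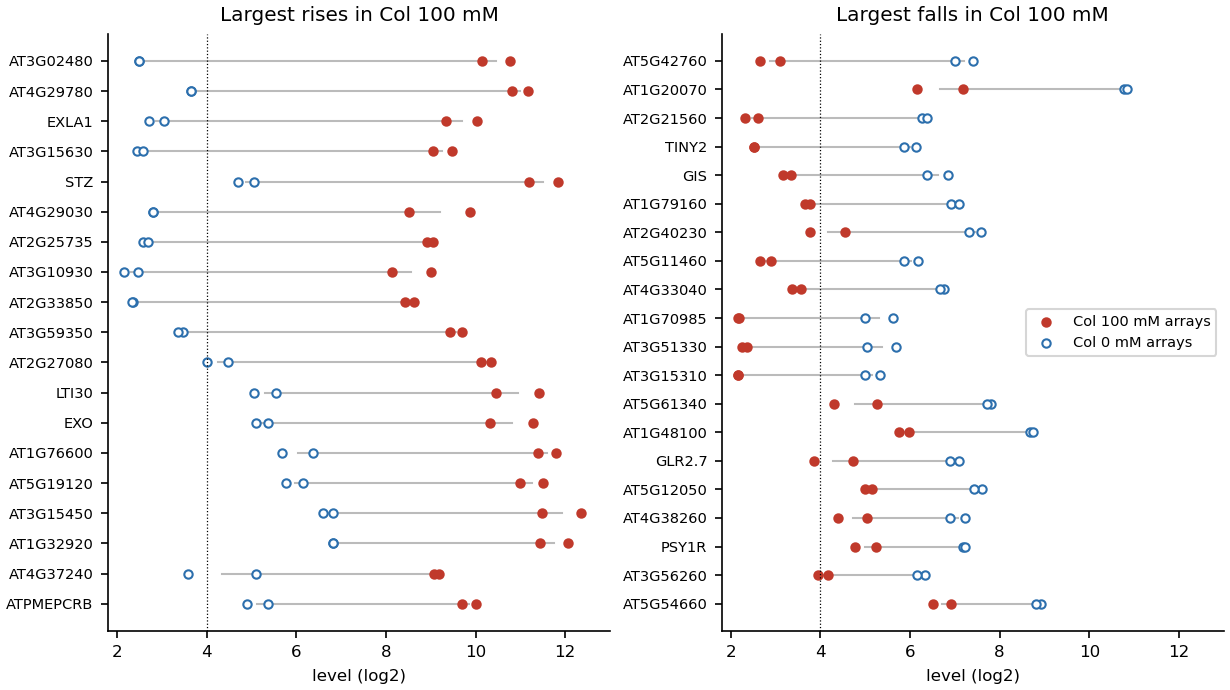
Log2 level on each array for the called genes with the largest rises (left) and falls (right), with filled red points for the 2 Col 100 mM arrays and open blue points for the 2 Col 0 mM arrays. The dotted line marks log2 4. In every gene shown the arrays of the 2 groups do not overlap, and 9 of the 19 rises have both Col 0 mM arrays below the line.

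Many of these calls did not hold when 1 array was left out. Such a fit has 1 array in a group and fewer degrees of freedom. A lost call therefore does not show that the array left out had decided it. The rule for named genes gave 76 genes, of which 64 passed (34 higher, 30 lower). The calls of 12 of them held without any one of the 4 Col arrays: AT3G02480, EXLA1, AT3G15630, STZ, AT3G10930, AT5G19120, AT1G32920, WRKY53 and BZIP53 among the rises, and AT5G11460, AT3G51330 and AT3G15310 among the falls. Leaving out Col 0 mM replicate 1 left 13 of the 64 calls and leaving out its replicate 2 left 19. Leaving out Col 100 mM replicate 1 left 24 and leaving out its replicate 2 left 43. The adjusted p without 1 array reached at most 0.197 (GIS), and no named call changed direction. The M6PR arrays bore on the calls through the shared spread: leaving out either M6PR 0 mM array left 10 of the 64, and leaving out either M6PR 100 mM array left 61. With the 4 Col arrays fitted alone 30 passed. Over all probe sets 102 of the 512 rises and 101 of the 681 falls passed in all 4 of these fits.

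Transcription factors of several families gave calls, where 2.25% of all probe sets were called higher and 2.99% lower. Separated higher and lower were 6.36% and 4.41% of them. Of 6 measured WRKY genes 2 rose and 0 fell, and the same 2 were separated. WRKY53, a regulator of leaf senescence, had 8.33 and 8.65 in Col 100 mM, against 5.05 and 4.95 in Col 0 mM (11.3-fold, adjusted p 0.00763). WRKY22, linked to dark-induced senescence and immunity, had 6.86 and 6.58 in Col 100 mM, against 2.22 and 2.59 in Col 0 mM, at least 6.59-fold higher (adjusted p 0.0409). WRKY6, which missed the threshold, had 5.91 and 7.37 in Col 100 mM, against 4.96 and 5.10 in Col 0 mM (change 1.61, adjusted p 0.144), and its lower salted array lay closer to the unsalted arrays than to the other salted one. ORA47, an AP2/ERF factor that acts on jasmonate synthesis genes, had 10.10 and 11.26 in Col 100 mM, against 5.91 and 6.01 in Col 0 mM (26.3-fold, adjusted p 0.0371). Of 11 measured bHLH genes 2 rose and 2 fell. ATMYC1, a trichome factor, had 5.69 and 4.40 in Col 100 mM, against 2.31 and 2.15 in Col 0 mM (at least 2.06-fold, adjusted p 0.0475), while the other rise, SPT, stayed below background. BIM1, a partner of the brassinosteroid factor BES1, had 7.49 and 7.44 in Col 100 mM, against 8.47 and 8.40 in Col 0 mM (fell by 0.97, SE 0.07, adjusted p 0.0132), and bHLH34 fell by 1.73 (adjusted p 0.0479). BZIP53, a factor of the low-energy response, had 11.70 and 11.86 in Col 100 mM, against 9.53 and 9.35 in Col 0 mM (5.06-fold, SE 0.14, adjusted p 0.00774). The calls of WRKY22, ORA47, SPT and bHLH34 were lost without any one of the 4 Col arrays (adjusted p up to 0.169), that of ATMYC1 without either Col 0 mM array (adjusted p up to 0.178), and that of BIM1 without Col 0 mM replicate 1 (adjusted p 0.0548).

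Calcium sensors and glutamate receptor-like channels, which carry and read calcium signals, gave calls in both directions. Of 15 measured genes of calcium sensing and touch 3 rose and 2 fell, where 2.25% and 2.99% of all probe sets were called, and 3 and 2 were separated, where 6.36% and 4.41% were. The rises were calmodulin-like genes. CML38 had 9.18 and 8.97 in Col 100 mM, against 4.80 and 4.79 in Col 0 mM (19.3-fold, adjusted p 0.0186). CML23 had 7.61 and 6.79 in Col 100 mM, against 4.07 and 4.42 in Col 0 mM (7.75-fold, adjusted p 0.0252). CML37 rose just past background, with 4.46 and 4.01 in Col 100 mM, against 2.16 and 2.15 in Col 0 mM, at least 1.18-fold (adjusted p 0.0321). The falls were glutamate receptor-like genes. GLR2.7 had 3.85 and 4.72 in Col 100 mM, against 7.09 and 6.90 in Col 0 mM (6.54-fold lower, adjusted p 0.0374). GLR3.6 had 5.37 and 5.06 in Col 100 mM, against 5.98 and 6.15 in Col 0 mM (1.8-fold lower, adjusted p 0.0385). Of the 8 measured GLR genes 0 rose, with changes of −0.93 in GLR3.3, −1.34 in GLR3.5 and −0.96 in GLR1.4 that missed the threshold, and the other 3 lay at background in both groups. The calls of CML38, CML37 and GLR2.7 were lost without any Col array other than Col 100 mM replicate 2 (adjusted p up to 0.156), and those of CML23 and GLR3.6 without either Col 0 mM array (adjusted p up to 0.131).

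Of 29 measured genes of wall loosening and xyloglucan remodelling 3 rose and 1 fell, against 2.25% and 2.99% of all probe sets. The rest did not pass, while 6 were separated higher and 4 lower, against 6.36% and 4.41%. EXLA1, EXO and the xyloglucan endotransglucosylase gene XTH19 rose; XTH19 had 8.79 and 8.41 in Col 100 mM, against 4.21 and 4.14 in Col 0 mM (21.5-fold, adjusted p 0.04). XTH16 had 8.47 and 7.50 in Col 100 mM, against 3.88 and 4.05 in Col 0 mM (adjusted p 0.0846). XTH18 had 7.31 and 6.57 in Col 100 mM, against 3.19 and 3.19 in Col 0 mM (adjusted p 0.138). Both were separated in the same direction as XTH19 but did not pass. EXLA2 had 6.6 and 6.44 in Col 100 mM, against 3.71 and 4.3 in Col 0 mM (adjusted p 0.124). The separated falls were the alpha-expansins EXPA16, EXPA8 and EXPA4 and the beta-expansin EXPB1. Expansins loosen growing walls. EXPA16 had 3.45 and 4.53 in Col 100 mM, against 7.50 and 7.59 in Col 0 mM. EXPA8 had 5.82 and 7.50 in Col 100 mM, against 9.57 and 9.34 in Col 0 mM. In EXPA16 and EXPA8 the salted arrays lay over 1 log2 unit apart from each other. EXPB1 had 6.18 and 7.08 in Col 100 mM, against 9.15 and 9.16 in Col 0 mM. EXPA4 had 8.75 and 8.83 in Col 100 mM, against 10.16 and 10.12 in Col 0 mM, with close replicates in both groups. None of the 4 passed (adjusted p 0.0558 to 0.118). The called fall, EXPA20, lies at background in both groups. With the dimmest 25% of probe sets left out before the adjustment, where 9.31% of 17059 probe sets were called higher and 11.1% lower, 5 of the 29 rose and 6 fell, EXPA4, EXPA8, EXPA16, EXPB1 and XTH32 among the falls and XTH16 and EXPA15 among the rises. Of 34 measured genes of cellulose, pectin and wall proteins 3 rose and 0 fell (2.25% and 2.99% of all probe sets). Among them TBL39, of the family that acetylates wall polysaccharides, had 6.16 and 5.83 in Col 100 mM, against 3.84 and 3.42 in Col 0 mM (at least 3.99-fold, adjusted p 0.0409), TBL38 rose by 0.74, and CSLC12 stayed at background. The calls of XTH19 and TBL39 were lost without any one of the 4 Col arrays (adjusted p up to 0.159), those of EXO and EXPA20 without any Col array other than Col 100 mM replicate 2 (adjusted p up to 0.106), and that of TBL38 without any Col array other than Col 0 mM replicate 2 (adjusted p up to 0.108).

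Among the listed genes of dehydration protection few passed, though 9 of the 12 measured had a higher mean in Col 100 mM. Of the 12 measured LEA and dehydrin genes 1 rose (LTI30) and 0 fell (2.25% and 2.99% of all probe sets). Separated higher were 3 (6.36%), and the median change was 0.91, against 0.00 over all genes represented. LEA4-5 had 7.42 and 8.55 in Col 100 mM, against 4.68 and 4.56 in Col 0 mM (change 3.36, adjusted p 0.0501). COR15B had 11.17 and 11.04 in Col 100 mM, against 9.04 and 9.01 in Col 0 mM (change 2.08, adjusted p 0.185). Both were separated. COR15A, a chloroplast cold-regulated protein, was already high, at 13.01 and 13.12 in Col 100 mM, against 12.29 and 12.16 in Col 0 mM (change 0.85, adjusted p 0.162). COR47, an acidic dehydrin, had 10.81 and 12.09 in Col 100 mM, against 10.25 and 10.27 in Col 0 mM, with 1 of its salted arrays close to the unsalted ones. The call of LTI30 was lost without any one of the 4 Col arrays (adjusted p up to 0.111). Of 9 measured genes of sodium, potassium and proton transport 0 passed in either direction. The cation exchanger gene CHX20, which acts in guard cells, was separated lower, at 5.13 and 6.02 in Col 100 mM, against 7.84 and 7.81 in Col 0 mM (change −2.25, limma adjusted p 0.0816). The proton pump genes VHA-A1, VHA-A2 and VHA-A3 had changes of 0.03, 0.05 and −0.23. Of 20 genes chosen for their known part in salt, cold or defence responses, the annotation gave 4 a probe set of their own: STZ, LTI30, COR15A and PDF1.2. The others were not assessed. Whether they lie among the 8730 probe sets with no gene named was not tested.

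Of 8 measured jasmonate genes 6 had a lower mean in Col 100 mM, without passing the test: 4 were separated lower (4.41% of all probe sets) and 0 higher (6.36%), 0 were called, and the median change was −1.20. The defensin genes PDF1.2 and PDF1.2b are outputs of jasmonate and ethylene signals. PDF1.2 had 6.63 and 6.43 in Col 100 mM, against 11.41 and 11.02 in Col 0 mM (change −4.69, adjusted p 0.194). PDF1.2b had 6.05 and 5.53 in Col 100 mM, against 10.64 and 10.48 in Col 0 mM (change −4.77, adjusted p 0.162). JMT, which methylates jasmonic acid, had 5.43 and 6.13 in Col 100 mM, against 8.63 and 8.17 in Col 0 mM (adjusted p 0.0866). MYC4, a bHLH factor of the pathway, had 5.92 and 4.98 in Col 100 mM, against 7.70 and 7.71 in Col 0 mM (adjusted p 0.111). OPCL1, of jasmonate synthesis, was the one whose change ran the other way in size, with 10.88 and 10.90 in Col 100 mM, against 9.64 and 9.96 in Col 0 mM (change 1.09, adjusted p 0.0793). The SE was 1.81 for PDF1.2 and 1.66 for PDF1.2b, and it draws on the spread of all 8 arrays. The replicate SD of PDF1.2 was 2.41 in M6PR 100 mM and 2.92 in M6PR 0 mM, against 0.14 in Col 100 mM and 0.27 in Col 0 mM. For PDF1.2b it was 2.31 and 2.59 in the same M6PR groups, against 0.37 and 0.11 in Col. The wide SE thus reflects mainly the M6PR replicates. The probe set of PDF1.2b is of the type marked as possibly detecting other sequences, so these related genes may share signal. Without the dimmest 25% of probe sets JMT and MYC4 passed as falls and OPCL1 as a rise.

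Flavonoids and anthocyanins are pigments that stressed leaves often make. Of 8 measured genes of their synthesis 7 had a lower mean in Col 100 mM: 5 were separated lower (4.41% of all probe sets) and 0 higher (6.36%), with 0 called and a median change of −1.47. AT5MAT, an anthocyanin malonyltransferase, had 3.03 and 5.14 in Col 100 mM, against 7.71 and 7.05 in Col 0 mM. The glycosyltransferase gene UGT78D2 had 8.50 and 8.60 in Col 100 mM, against 10.84 and 10.72 in Col 0 mM. UF3GT, of the same family, had 8.52 and 9.08 in Col 100 mM, against 10.79 and 10.79 in Col 0 mM. The salted arrays lay far apart in AT5MAT and close together in UGT78D2. DFR, dihydroflavonol reductase, had 11.04 and 10.68 in Col 100 mM, against 12.06 and 12.13 in Col 0 mM. CHIL, a chalcone isomerase-like protein, had 8.77 and 7.92 in Col 100 mM, against 10.18 and 9.94 in Col 0 mM. Adjusted p ran from 0.13 to 0.338 for these 5. In M6PR their changes with salt were above 0, at 0.68 (DFR) to 3.02 (UF3GT). The difference between the lines did not pass for them (limma adjusted p 0.0866 to 0.389). Of 5 measured glucosinolate genes 0 passed. AOP1 was separated lower (change −1.22, adjusted p 0.066) and BCAT4, of methionine chain elongation, had a change of −0.93 (adjusted p 0.0776).

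Among the other hormone genes, 1 of 17 auxin genes rose and 0 fell (2.25% and 2.99% of all probe sets). WES1 (GH3.5), which couples amino acids to auxin and salicylic acid, had 4.72 and 4.23 in Col 100 mM, against 2.17 and 2.17 in Col 0 mM, at least 1.39-fold higher (adjusted p 0.0121; 0.0501 without Col 0 mM replicate 1). The related GH3.3 had 6.00 and 4.98 in Col 100 mM, against 3.63 and 3.55 in Col 0 mM (adjusted p 0.118), and HAT2, an auxin-responsive homeobox gene, was separated lower with 6.02 and 6.55 in Col 100 mM, against 8.48 and 8.43 in Col 0 mM (adjusted p 0.0618). Of the 17, 13 lay at background in both groups. The 5 measured genes of gibberellin signalling all lay above background and 0 passed, with changes between −1.35 (GID1C, a receptor) and 0.02 (SPY).

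**Figure D3:**
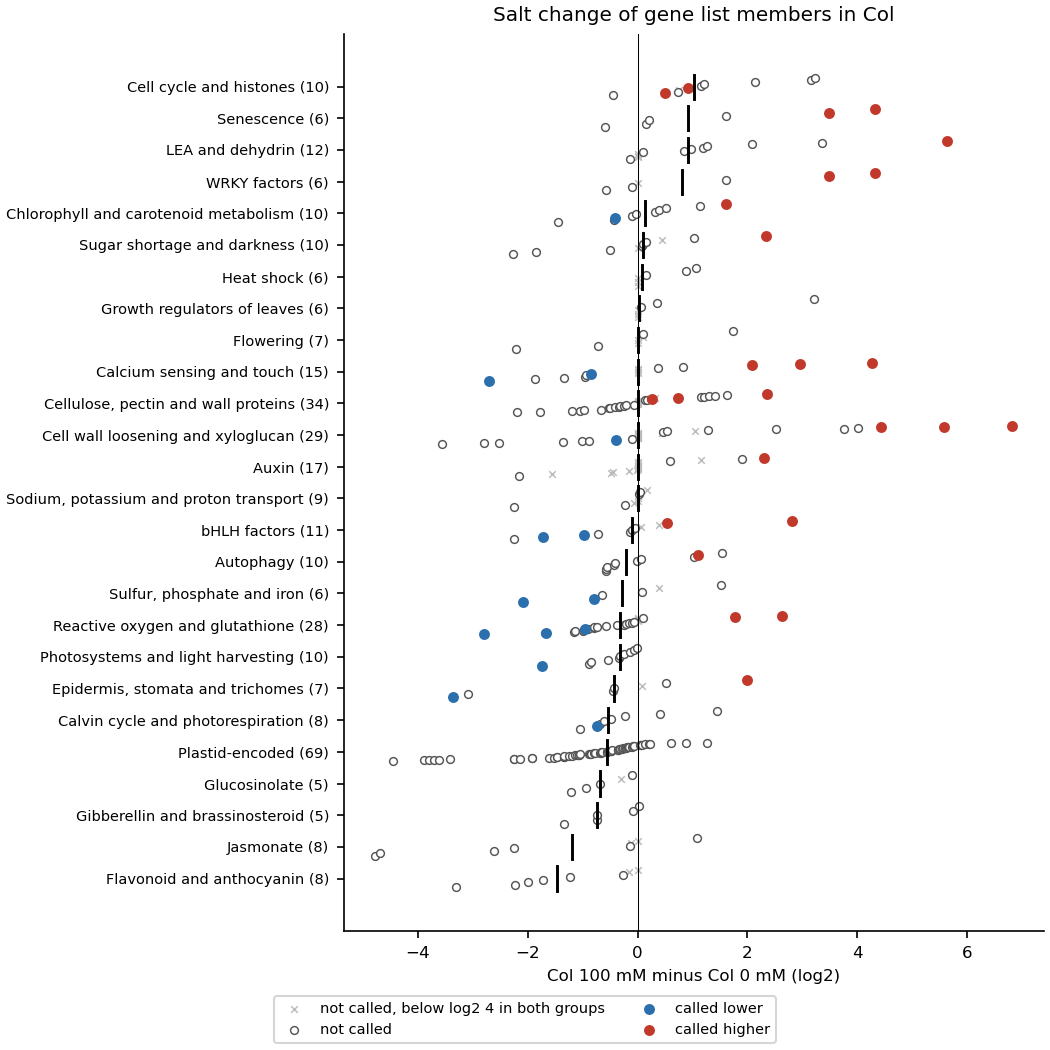
Change with salt in Col (log2, horizontal axis) of the members of each gene list with at least 5 measured genes, ordered by the list's median (black bar), with the number measured in brackets. Filled red and blue points passed the limma test as higher and lower, open points did not, and crosses mark members that did not pass and lay below log2 4 in both groups. Called points stand on both sides of 0 in the calcium, chlorophyll and reactive oxygen lists, and the flavonoid list lies almost wholly left of 0 with none called.

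Nuclear genes of photosynthesis stood at high levels in both groups. The counts of calls below stand beside 2.25% of all probe sets called higher and 2.99% lower. Of 10 measured genes of photosystems and light harvesting 1 fell and 0 rose, and all 10 changes were negative in size, with a median of −0.33. LHCB4.3, an antenna protein of photosystem II, had 11.40 and 11.05 in Col 100 mM, against 13.03 and 12.89 in Col 0 mM (3.33-fold lower, adjusted p 0.0173), while its relatives LHCB4.2 and LHCB4.1 had changes of −0.84 (adjusted p 0.15) and −0.07 (adjusted p 0.332). Of 8 genes of the Calvin cycle and photorespiration 1 fell and 0 rose: SBPASE, sedoheptulose-bisphosphatase, had 13.11 and 13.33 in Col 100 mM, against 13.97 and 13.96 in Col 0 mM (1.67-fold lower, adjusted p 0.0452). Of 10 genes of chlorophyll and carotenoid metabolism 1 rose and 1 fell. PORB, the protochlorophyllide reductase, had 13.44 and 13.33 in Col 100 mM, against 11.70 and 11.85 in Col 0 mM (3.05-fold higher, adjusted p 0.0438), and CHLM, the magnesium protoporphyrin methyltransferase, had 12.10 and 12.06 in Col 100 mM, against 12.53 and 12.43 in Col 0 mM (1.32-fold lower, adjusted p 0.0204). The call of PORB was lost without any one of the 4 Col arrays (adjusted p up to 0.182), that of SBPASE without any Col array other than Col 100 mM replicate 2 (adjusted p up to 0.181), that of LHCB4.3 without either Col 0 mM array (adjusted p up to 0.0759), and that of CHLM without Col 100 mM replicate 1 (adjusted p 0.0591).

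Plastid-encoded genes set the salted replicates apart. Of 69 measured, 0 passed in either direction and 57 had a lower mean in Col 100 mM, with a median of −0.55. That median rests on Col 100 mM replicate 1, where it was −1.45, against 0.17 on Col 100 mM replicate 2, where centring the arrays turns it below 0. The median level was 9.59 and 11.67 on the Col 100 mM arrays, against 11.91 and 11.73 on the Col 0 mM arrays. On the 4 M6PR arrays it lay between 11.58 and 11.97. On replicate 1, 62 of the 69 genes were lower than on replicate 2, and 25 of them by at least 3 log2 units. The core genes psaA, psbA, psbB, psbC and psbD of photosystems I and II, and rbcL, the large subunit of Rubisco, were among the farthest apart. psaA had 2.39 and 13.30 in Col 100 mM, against 12.27 and 12.33 in Col 0 mM. psbA had 4.99 and 11.02 in Col 100 mM, against 11.92 and 11.88 in Col 0 mM. rbcL had 5.11 and 10.58 in Col 100 mM, against 9.17 and 9.21 in Col 0 mM. In psaA and rbcL the unsalted arrays lay between the salted ones. Over all probe sets, 80 were lower and 18 higher on replicate 1 by at least 3 log2 units, and 0 probe sets differed by as much between the Col 0 mM arrays. The nuclear photosynthesis list had medians of −0.27 and −0.28 on the same arrays. The cause of the gap was not tested.

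**Figure D4:**
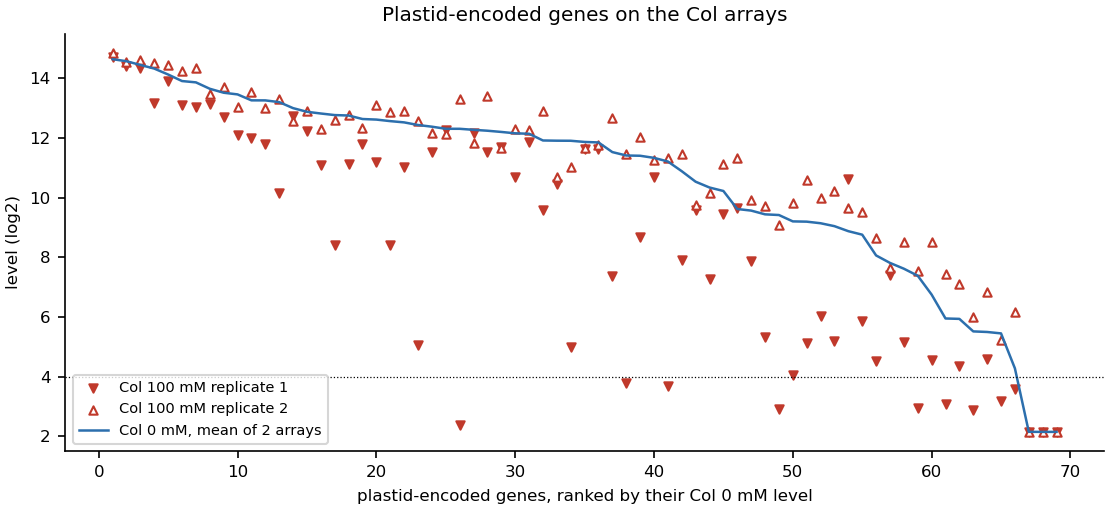
Log2 level of the 69 plastid-encoded genes on Col 100 mM replicate 1 (filled triangles) and replicate 2 (open triangles) and their Col 0 mM mean (blue line), ranked by that mean. Replicate 2 follows or exceeds the line for most genes, while on replicate 1 25 genes lie at least 3 log2 units under replicate 2 and 12 lie under log2 4.

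Of 6 measured genes of sulfur, phosphate and iron 2 fell and 0 rose (2.99% and 2.25% of all probe sets). APS4, an ATP sulfurylase of sulfate activation, had 7.44 and 7.70 in Col 100 mM, against 9.67 and 9.63 in Col 0 mM (4.24-fold lower, adjusted p 0.0264), and SIR, sulfite reductase, had 11.46 and 11.40 in Col 100 mM, against 12.23 and 12.21 in Col 0 mM (1.73-fold lower, adjusted p 0.0177), while APS3 had a change of 0.09 (adjusted p 1). Of 28 measured genes of reactive oxygen and glutathione 2 rose and 3 fell (2.25% and 2.99% of all probe sets), and 20 had a lower mean in Col 100 mM. The rises were GRX480, a glutaredoxin of jasmonate and salicylic acid crosstalk (8.70 and 7.62 in Col 100 mM, against 5.85 and 5.22 in Col 0 mM; 6.17-fold, adjusted p 0.0493), and CCS, the copper chaperone of superoxide dismutase (9.75 and 9.80 in Col 100 mM, against 7.88 and 8.11 in Col 0 mM; 3.44-fold, adjusted p 0.0206). The falls were thylakoid ascorbate peroxidase TAPX and the glutathione transferases GSTU18 and GSTU23. GSTU18 had 8.08 and 8.50 in Col 100 mM, against 10.01 and 9.93 in Col 0 mM (3.19-fold lower, adjusted p 0.04), and GSTU23 fell to background, with 3.08 and 2.48 in Col 100 mM, against 5.41 and 5.73 in Col 0 mM (at least 2.97-fold lower, adjusted p 0.0371). Without the dimmest 25% of probe sets 10 of the 28 fell and 2 rose, where 11.1% and 9.31% of the probe sets tested did. The call of TAPX, which fell by 0.96, held without any one Col array. The call of GSTU23 was lost without any one of the 4 Col arrays (adjusted p up to 0.134), and those of APS4, SIR, GRX480, CCS and GSTU18 without any Col array other than Col 100 mM replicate 2 (adjusted p up to 0.167).

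Of 10 measured genes of the cell cycle and histones 2 rose and 0 fell (2.25% and 2.99% of all probe sets), 3 were separated higher (6.36%), and 9 changes were positive in size with a median of 1.04. The 2 that passed, the Aurora kinase gene AUR3 and the centromeric histone gene HTR12, lay below background in both groups. The mitotic kinase gene AUR1 had 7.88 and 6.62 in Col 100 mM, against 3.83 and 4.19 in Col 0 mM (adjusted p 0.143). Its relative AUR2 had 6.78 and 5.69 in Col 100 mM, against 3.11 and 3.04 in Col 0 mM (adjusted p 0.0576). HTB2, a histone H2B gene, had 9.25 and 9.03 in Col 100 mM, against 7.32 and 6.69 in Col 0 mM (adjusted p 0.0613). In AUR1 and AUR2 the salted arrays lay over 1 log2 unit apart from each other. Without the dimmest 25% of probe sets 5 of the 10 rose (9.31% of the probe sets tested), AUR2, HTB1 and HTB2 among them. SPCH, which starts the stomatal lineage, had 4.40 and 4.02 in Col 100 mM, against 2.21 and 2.21 in Col 0 mM, at least 1.16-fold higher (adjusted p 0.0153, lost without either Col 0 mM array, at up to 0.069), while the later stomatal genes MUTE and FMA had changes of 0.07 and −0.42 that did not pass. The trichome repressor gene TRY was separated lower beside GIS, with 5.24 and 5.0 in Col 100 mM, against 8.25 and 8.16 in Col 0 mM (adjusted p 0.141). ARL, which promotes cell expansion, had 8.17 and 6.93 in Col 100 mM, against 4.83 and 3.85 in Col 0 mM (adjusted p 0.123).

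Of 10 measured genes of sugar shortage and darkness 1 rose (BZIP53), and of 6 senescence genes the 2 rises were again WRKY22 and WRKY53. Over all probe sets 2.25% were called higher and 2.99% lower. The senescence gene SAG29 had 4.06 and 8.80 in Col 100 mM, against 6.29 and 6.24 in Col 0 mM, so its salted arrays lay on both sides of the unsalted ones. PPDK, pyruvate orthophosphate dikinase, was separated lower, with 7.96 and 9.10 in Col 100 mM, against 10.81 and 10.78 in Col 0 mM (adjusted p 0.121). Of 10 autophagy genes, all above background, ATG8H rose (7.52 and 7.24 in Col 100 mM, against 6.15 and 6.4 in Col 0 mM; 2.15-fold, adjusted p 0.048) and 0 fell. The call of ATG8H was lost without any one of the 4 Col arrays (adjusted p up to 0.188). Its relative ATG8E had 7.62 and 7.28 in Col 100 mM, against 6.30 and 5.54 in Col 0 mM (adjusted p 0.0682), and the changes of the other 8 ran from −0.58 to 1.03. Of 6 heat shock genes and 7 flowering genes 0 passed.

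Of the 650 called probe sets of 1 gene, 103 carry a symbol other than a locus, 50 higher and 53 lower. The following were picked from them after their values were seen, and no theme is drawn from them. TET8, a tetraspanin of secreted vesicles, had 12.01 and 11.94 in Col 100 mM, against 9.21 and 9.19 in Col 0 mM (6.83-fold, adjusted p 0.00784), and the glycosyltransferase gene UGT76E12 rose from the floor on both unsalted arrays, with 6.45 and 6.86 in Col 100 mM, against 2.15 and 2.15 in Col 0 mM (at least 6.30-fold, adjusted p 0.0062). PUB23, a ubiquitin ligase that dampens drought and immune responses, had 7.48 and 8.18 in Col 100 mM, against 4.05 and 4.09 in Col 0 mM (13.5-fold). THE1, a receptor kinase that monitors the cell wall, rose 2.90-fold, the vacuolar sugar carrier gene TMT1 2.31-fold and BZIP60, of the unfolded protein response, 1.93-fold. NdhN and CRR42, of the chloroplast NADH dehydrogenase-like complex, fell 2.33-fold and 2.6-fold, HCF101, which supplies iron-sulfur clusters to photosystem I, 1.63-fold, TROL, a thylakoid rhodanese-like protein, 1.71-fold, the plastid division gene FTSZ2-2 1.8-fold and SIRB, which makes the cofactor of sulfite reductase, 1.79-fold. SWEET1, a glucose carrier, had 6.97 and 7.15 in Col 100 mM, against 8.79 and 8.77 in Col 0 mM (3.29-fold lower), and ALN, allantoinase of purine breakdown, had 4.07 and 4.52 in Col 100 mM, against 6.29 and 6.56 in Col 0 mM (4.38-fold lower). Among the 47 measured UGT genes 2 rose and 2 fell, and 1 was separated higher and 7 lower. Among 26 CYP genes 0 rose and 1 fell (CYP71B36, at least 4.78-fold), and 0 were separated higher and 5 lower. Over all probe sets 2.25% rose, 2.99% fell, 6.36% were separated higher and 4.41% lower. The calls of TET8, UGT76E12 and TMT1 held without any one Col array. The calls of THE1, BZIP60, NdhN, CRR42, FTSZ2-2, SWEET1, ALN and CYP71B36 were lost without any one of the 4 Col arrays (adjusted p up to 0.191), those of PUB23, HCF101 and SIRB without any Col array other than Col 100 mM replicate 2 (adjusted p up to 0.138), and that of TROL without any Col array other than Col 0 mM replicate 2 (adjusted p up to 0.127).

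The response of Col was set against that of M6PR by testing the difference itself. It passed for 330 of 22746 probe sets (1.45%), 212 with a larger value in Col and 118 with a smaller one. Of the 512 rises in Col 267 had the same sign in M6PR and 164 differed from M6PR in this test, and of the 681 falls 417 and 112. Of the 64 named calls 29 had a change of the opposite sign in M6PR, and 17 differed between the lines in this test. These sets were picked mainly by their Col change, which is part of the tested difference. Shares above the 1.45% of all probe sets thus follow partly from that choice. Signs count M6PR changes of any size, and their share over all probe sets is not given here. STZ, whose Col values are given above, had 10.00 and 11.07 in M6PR 100 mM, against 9.63 and 9.78 in M6PR 0 mM (Col change minus M6PR change 5.82, SE 0.62, adjusted p 0.041). CML38 had 8.11 and 9.29 in M6PR 100 mM, against 9.72 and 9.67 in M6PR 0 mM (difference 5.27, adjusted p 0.0414). ATPMEPCRB had 8.70 and 9.79 in M6PR 100 mM, against 9.88 and 9.94 in M6PR 0 mM (difference 5.39, adjusted p 0.0415). In all 3 both M6PR 0 mM arrays lay above both Col 0 mM arrays. EXO, AT3G15630, AT3G59350 and AT3G15450 had M6PR 0 mM means of 12.74, 12.09, 10.80 and 13.80, above their Col 100 mM means. AT3G02480, AT4G29030 and AT2G33850 instead lay below background in M6PR 0 mM. Among the falls, GIS (2.79), AT5G42760 (2.48) and AT1G20070 (6.04) had M6PR 0 mM means far below those in Col 0 mM. That of PSY1R (7.87) lay above its Col 0 mM mean. EXLA1 had 9.90 and 11.12 in M6PR 100 mM, against 11.90 and 11.97 in M6PR 0 mM, high on all 4 arrays, while its Col 0 mM arrays were at background, so the size is not measured (fitted difference 8.24, SE 0.69, adjusted p 0.0288). TINY2 had 3.37 and 2.53 in M6PR 100 mM, against 2.61 and 2.69 in M6PR 0 mM, so in M6PR all 4 arrays lay below background and the size of the difference is not measured (−3.77, adjusted p 0.0441). In ORA47, by contrast, both lines had large changes, 4.72 in Col and 4.29 in M6PR, with no difference called (adjusted p 0.947), and AT3G02480 had 7.96 and 5.26 (adjusted p 0.197). The difference between the lines cannot be told apart from one between accessions if the M6PR plants are Ws. Most of the 17 named differences were lost in some of the fits without 1 array. Leaving out M6PR 0 mM replicate 1 left 3 and its replicate 2 left 4, and leaving out either Col 0 mM array left 5. Leaving out Col 100 mM replicate 1 left 7 and its replicate 2 left 8. Leaving out M6PR 100 mM replicate 1 left 13 (with 447 probe sets in all) and its replicate 2 left 17 (with 2234). For a tested difference of at least 2-fold 0 of the 17 passed in limma, though all 17 had passed without that minimum.

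**Figure D5:**
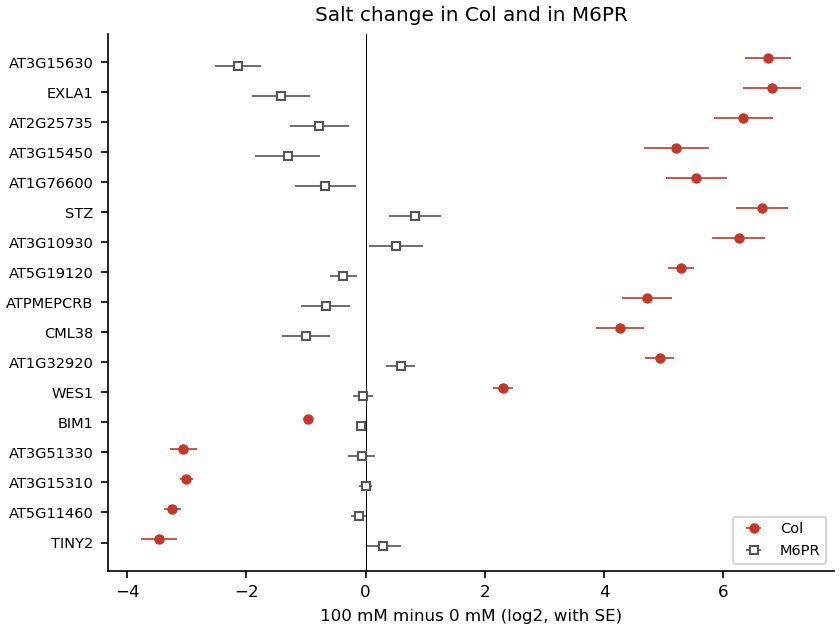
Change with salt (log2, with SE from limma) in Col (filled circles) and in M6PR (open squares), 2 arrays per group, for the 17 named genes whose change differed between the lines. The Col values lie at least 2.31 from 0 on either side except for BIM1, at −0.97, and the M6PR values lie between −2.14 and 0.83.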

How the data were processed

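Leaf RNA of 8 samples was measured on 1 array each. The deposited values are log2 intensities, one per probe set, and per the submitters' processing notes GCOS and RMA were used, with versions not given in the sources used here. They share a floor at 2.15, where 27.9 to 29.2% of the probe sets on an array lie within 0.01, so changes that start or end there have no measured size. Of 22810 probe sets 64 array controls were left out. The deposited probe annotation names 1 gene for 13513 of the others, several for 503 and none for 8730, and symbols were updated through RefSeq (13436 matched). A gene was represented by 1 probe set.

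Groups, replicates and doses come from the labels. With limma 3.58.1 in R 4.3.3 a mean per group was fitted to all 8 arrays, with the spread moderated across probe sets (eBayes), two-sided tests and Benjamini-Hochberg adjustment over all 22746 probe sets, and a probe set was called at an adjusted p under 0.05. The residual degrees of freedom were 4 and the prior ones 0.409. The tests cover the spread between pots of 1 growth experiment. Genes were named by a rule: the 12 largest called rises and falls with the brighter group at log2 4 or more, the 10 largest with both groups there, in each gene list up to 2 called members each way (or the largest separated one where none was called), and 20 chosen stress genes. The members and lists were chosen with earlier results of these data known. Same-numbered Col replicates deviated from their group means with a correlation of 0.0153, and replicates were not paired in the main fit. In M6PR, whose arrays share the spread estimate, this correlation was 0.486, so the Col value alone does not settle the choice. With a replicate block over 8 arrays the calls came to 497 for salt in Col and 53 for the difference between the lines. Alternatives were other filters, scalings, spread models, arrays and a replicate block. The code was tested on simulated data. Promoter motifs and sequences were not analysed here, and 0 columns of sample values were left unused.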

Additional observations from a re-analysis of the deposited data

Results flagged for a closer look

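The salt response of 17 named genes differed between Col and M6PR in a limma test of the difference itself (adjusted p under 0.05), of 64 named genes called in Col. Values are the change in Col minus the change in M6PR, in log2 units, with 2 arrays per group. Among regulators it was 5.82 for the zinc finger gene STZ, 5.27 for the calmodulin-like gene CML38, −3.77 for the AP2/ERF gene TINY2 and −0.89 for the bHLH gene BIM1. Among wall and hormone genes it was 8.24 for the expansin-like gene EXLA1, 5.39 for the pectin methylesterase gene ATPMEPCRB and 2.35 for the auxin conjugation gene WES1. Among genes known here by locus alone it was 8.88 for AT3G15630, 7.12 for AT2G25735, 6.53 for AT3G15450, 6.23 for AT1G76600, 5.75 for AT3G10930, 5.67 for AT5G19120 and 4.34 for AT1G32920. It was −3.13 for AT5G11460, −3.01 for AT3G15310 and −2.99 for AT3G51330. A positive value means that the change was higher in Col than in M6PR and a negative one that it was lower. Of the 12 genes with positive values all rose in Col, while their M6PR changes lay between −2.14 (AT3G15630) and 0.83 (STZ). Of the 5 with negative values all fell in Col, while their M6PR changes lay between −0.11 (AT5G11460) and 0.30 (TINY2). All 17 were called in Col, and the Col change is part of the difference. The match of signs thus follows largely from the choice of genes. EXLA1, WES1, AT3G15630, AT2G25735 and AT3G10930 start below background in Col 0 mM. TINY2, AT5G11460, AT3G15310 and AT3G51330 end below it in Col 100 mM and lie below it in both M6PR groups. For these 9 genes the values are fitted and the size of the difference is not measured. With the replicate block 0 of the 17 differences passed in limma, and leaving out 1 of the 8 arrays left 3 to 17.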

How the results depend on the processing

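Probe sets called for salt in Col (1193, with 512 higher and 681 lower) came to 3491 (1589 and 1902) without the dimmest 25%, 3959 (1913 and 2046) with only those at log2 4 or more in a Col group, and 4254 (1388 and 2866) after centring on array medians. They came to 1277 (516 and 761) after further quantile normalization, 941 (406 and 535) with trend and robust prior, 792 (379 and 413) with only the 4 Col arrays and 60 (46 and 14) for a tested change of at least 2-fold. The replicate block gave 497 (216 and 281) over 8 arrays; over the 4 Col arrays it gave 0 (0 and 0) in limma, with 4508 at an unadjusted p under 0.05. The crossed replicate block, chosen after seeing the data, also gave 0 (0 and 0), with 4359 unadjusted. Leaving out 1 array gave 253 to 2607 calls, 116 to 1191 higher and 137 to 1416 lower. The extremes were without M6PR 0 mM replicates (253) and without M6PR 100 mM replicates (2607), both chosen after seeing the data, while leaving out Col arrays gave 597 (without Col 0 mM replicate 1), 816 (Col 0 mM replicate 2), 828 (Col 100 mM replicate 1) and 1939 (Col 100 mM replicate 2). The difference between the lines (330) came to 1025, 1317 and 1022 under both filters and centring, 53 with the replicate block, 3 for 2-fold and 248 to 2234 without 1 array. Separated probe sets came to 1323 and 1117 higher and 1123 and 1492 lower after quantile normalization and centring. No named call changed direction; of the 64, 63 or 64 passed under both filters and centring, 54 after quantile normalization, 52 with trend, 30 with only Col arrays, 28 with the replicate block and 10 for 2-fold. The causes of these shifts were not tested.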
